A study of Mus musculus with 12 samples.

Results

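Cell cycle and DNA replication genes were read across 12 libraries of lymph node CD4+ T cells, 8 of total RNA and 4 of ribosome-protected fragments (RPF), the short pieces of mRNA protected by a translating ribosome. The 39 genes are a list of proliferation genes matched from Ensembl identifier to symbol, and every one of them was a row of a single identifier among the 45669 rows of the table. Of these, 20 act in S phase, when DNA is copied, and 19 in mitosis, when the copied chromosomes are parted. The cells came from 12-week-old C57BL6 mice that were either WT/WT (WT) or Anaef/Anaef (Anaef), that is, homozygous for a point-mutant allele of Rasgrp1, a guanine nucleotide exchange factor through which the T cell receptor activates Ras. Total RNA libraries came from 20000 cells each, with WT replicates 1 to 4 and Anaef replicates 5 to 8. For RPF, the remaining cells were pooled 2 by 2 into WT 1B and 2B and Anaef 3B and 4B, and treated with cycloheximide for 1 minute before lysis. No stimulus or drug other than that is named in the labels, so all groups are unstimulated cells as isolated by depleting other cells.

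A dividing cell commits in G1, when cyclin-dependent kinases inactivate Rb-type repressors and E2F factors switch on the genes of DNA synthesis. Genes of mitosis follow later, and many are held off in resting cells by the DREAM complex at CHR elements of their promoters. CCAAT boxes often lie near these elements. Most CD4+ T cells of an unstimulated lymph node rest outside the cycle, so the RNA of these genes in such a preparation comes from a mixture of many resting and few cycling cells. In bulk libraries, fewer cells of a type and less RNA per cell cannot be told apart.

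Depth was 15326842 to 40046317 counts in total RNA and 2868943 to 7009342 in RPF. CPM are counts scaled to a library of 1000000 after TMM normalization within each assay. The 10 CD4+ T cell markers were all detected and summed to 3287 to 3552 CPM in WT and 3551 to 5067 CPM in Anaef total RNA. Among markers of other cells, the 10 plasma cell genes summed to 1248 to 5453 CPM in WT total RNA and to 451 to 870 CPM in Anaef, with none of them at 0 in every library. The 14 B cell markers summed to 76.0 to 148 CPM in WT and 28.7 to 97.8 CPM in Anaef, and the 10 myeloid and dendritic cell markers to 35.6 to 40.8 CPM and 18.8 to 28.9 CPM, none of them at 0 in every library. Of 7 germinal centre B cell markers in the table, Rgs13 was at 0 in all libraries, and their sum was 43.8 to 57.6 CPM in WT and 49.0 to 73.3 CPM in Anaef. Mitochondrial transcripts took 16.4% to 27.8% of total RNA counts, the most in WT 3. Rasgrp1 itself was at 452 to 609 CPM in WT and 459 to 682 CPM in Anaef total RNA (adjusted p = 0.945 by edgeR, log2 fold change 0.21), which does not check the labels, since the allele alters the protein.

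Promoter sequences of the 2 groups of genes differ in the short elements they hold, and a few are shown here so that these elements can be seen. RefSeq windows of 300 bases, 250 before to 50 after a start (GRCm38.p6), matched 32 of the 39 genes in 37 windows. The sequences are the 150 bases before the start of Mcm6 and Tyms from S phase and of Cdc20, Cdk1 and Top2a from mitosis, examples chosen after values and sequences were seen. Capitals mark E2F sites (TTTNGCGC), CHR elements (TTTGAA or TTCGAA) and CCAAT boxes (CCAAT), on either strand and read 5′ to 3′ along the gene's strand.
Mcm6, chr1:128359706-128359855, minus strand: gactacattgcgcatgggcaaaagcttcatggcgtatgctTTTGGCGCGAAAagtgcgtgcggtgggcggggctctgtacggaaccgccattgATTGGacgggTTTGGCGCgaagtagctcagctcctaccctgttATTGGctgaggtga
Tyms, chr5:30073626-30073775, minus strand: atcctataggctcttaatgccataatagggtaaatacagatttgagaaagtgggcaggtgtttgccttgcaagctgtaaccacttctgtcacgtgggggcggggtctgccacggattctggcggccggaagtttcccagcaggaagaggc
Cdc20, chr4:118437344-118437493, minus strand: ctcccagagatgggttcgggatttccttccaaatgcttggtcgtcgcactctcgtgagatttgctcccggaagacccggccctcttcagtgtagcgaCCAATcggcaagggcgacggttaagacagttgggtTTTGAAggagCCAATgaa
Cdk1, chr10:69352913-69353062, minus strand: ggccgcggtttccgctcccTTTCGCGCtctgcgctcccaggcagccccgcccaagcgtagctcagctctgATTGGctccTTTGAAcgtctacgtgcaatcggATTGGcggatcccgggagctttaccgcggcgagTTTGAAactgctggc
Top2a, chr11:99024190-99024339, minus strand: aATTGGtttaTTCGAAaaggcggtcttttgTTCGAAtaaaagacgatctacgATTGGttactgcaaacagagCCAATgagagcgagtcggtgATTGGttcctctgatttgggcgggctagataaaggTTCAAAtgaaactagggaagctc

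The Mcm6 window holds 3 E2F sites, starting 110, 106 and 47 bases before the start, of which the first pair overlap on opposite strands. Cdc20 has a CHR 18 bases before the start between CCAAT boxes at 53 and 8 bases, and Cdk1 has a CHR at 71 and at 15 bases together with 1 E2F site at 131 bases. None of the letters searched is in the Tyms stretch, which says only that they are not in this window. Over the 300 bases, TTTNGCGC was in 7 of 22 S phase windows (31.8%), in 1 of 15 mitotic windows (6.67%) and in 1.38% of all 32851 windows. The other E2F form searched, TTCCCGCC, was in 13.6% of S phase windows, in no mitotic window and in 2.19% of all. TTTGAA was in 2 S phase windows (9.09%) and in 11 mitotic ones (73.3%), against 17.9% of all windows, and TTCGAA in 4.55%, 20% and 1.56%. A CHR of either form together with a CCAAT box was in 12 of 15 mitotic windows (80.0%), in 9.09% of S phase windows and in 7.52% of all windows, with CCAAT alone in 86.7%, 50.0% and 37.4%. A match of letters is a description of the sequence and not a bound site.

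Levels spanned a wide range among the genes. Per kilobase of transcript, the median total RNA level was 5.13 CPM over the S phase genes and 1.42 CPM over the mitotic genes. Pcna, the sliding clamp that tethers DNA polymerases, was the most abundant at 53.7 CPM per kb, and its range over the 8 libraries (40.5 to 77.3) lay above that of every other gene of the list. Cenpa, the histone H3 variant of the centromere, came next at 18.5 CPM per kb, then Tyms, which makes the thymidine nucleotide, at 18.1, and Stmn1, a protein that destabilizes microtubules, at 14.3. The ranges of these 3 overlapped, so their order is not separated by the spread. The lowest were Bub1, a spindle checkpoint kinase, at 0.333, Cdc20, the activator of the anaphase-promoting complex, at 0.327, and Cdk1, the kinase that drives entry into mitosis, at 0.131 CPM per kb. In RPF, per kilobase of coding sequence, the medians were 43.4 CPM for S phase and 9.10 CPM for mitotic genes. Pcna again led at 599.6 CPM per kb, followed by Stmn1 at 186 and the replicative helicase subunits Mcm4 at 123 and Mcm3 at 90.0, and Ccna2, cyclin A2, was lowest at 0.582. Of the Pcna and Stmn1 coding sequences, 77.5% and 96.4% of all 28-base words are also in other annotated transcripts, mostly processed copies, so how the counting treated shared reads could move both levels.

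The summed level of the S phase genes was nearly even across the total RNA libraries, while that of the mitotic genes was not. Summed over the 20 S phase genes, WT 1 to 4 had 361, 399, 389 and 369 CPM, and Anaef 5 to 8 had 360, 395, 384 and 381 CPM. The highest of the 8 was 1.11 times the lowest, and the genotypes overlapped. Single S phase genes varied more, with Lig1, the DNA ligase of the lagging strand, at 7.07 to 30.3 CPM, Ccne1, cyclin E1, at 2.29 to 12.9 CPM and Tk1, thymidine kinase, at 2.84 to 13.3 CPM over the libraries. Summed over the 19 mitotic genes, WT 1 to 4 had 227, 291, 138 and 139 CPM, and Anaef 5 to 8 had 98.4, 188, 139 and 171 CPM. Here the highest library was 2.96 times the lowest, WT 1 and 2 stood above all others, WT 3 and 4 lay within the range of Anaef, and Anaef 5 was lowest. The pattern did not rest on Mki67, the most counted mitotic gene, since the sum without it still ran from 65.6 to 173 CPM, a 2.64-fold range.

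On the log2 scale, where each gene weighs the same, the mean over the S phase genes was 3.42, 3.59, 3.22 and 3.34 in WT 1 to 4 and 3.28, 3.49, 3.45 and 3.49 in Anaef 5 to 8. For the mitotic genes it was 2.48, 2.97, 0.98 and 1.76 in WT 1 to 4, and in Anaef 5 to 8 it was 0.78, 1.26, 1.71 and 1.39. Mean S phase minus mean mitotic level was thus 0.94, 0.62, 2.25 and 1.59 in WT and 2.50, 2.23, 1.74 and 2.10 in Anaef. WT 2 was the highest library for 11 of the 19 mitotic genes and WT 3 or Anaef 5 the lowest for 6 and 5 of them. Ccnb1, at 0 counts in both WT 3 and Anaef 5, was counted for WT 3 only. Among the 20 S phase genes no library was highest for more than 4, and WT 3 and Anaef 5 were lowest for 5 and 3. Between genotypes the mitotic mean was lower in Anaef by a log2 difference of -0.76, with a within-group SD of 0.67 over the libraries, and the S phase mean differed by 0.04 with an SD of 0.13. Without WT 2 the mitotic difference was -0.45, without WT 3 it was -1.12, and over the 9 mitotic genes with at least 10 counts in every library it was -0.31.

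**Figure D1:**
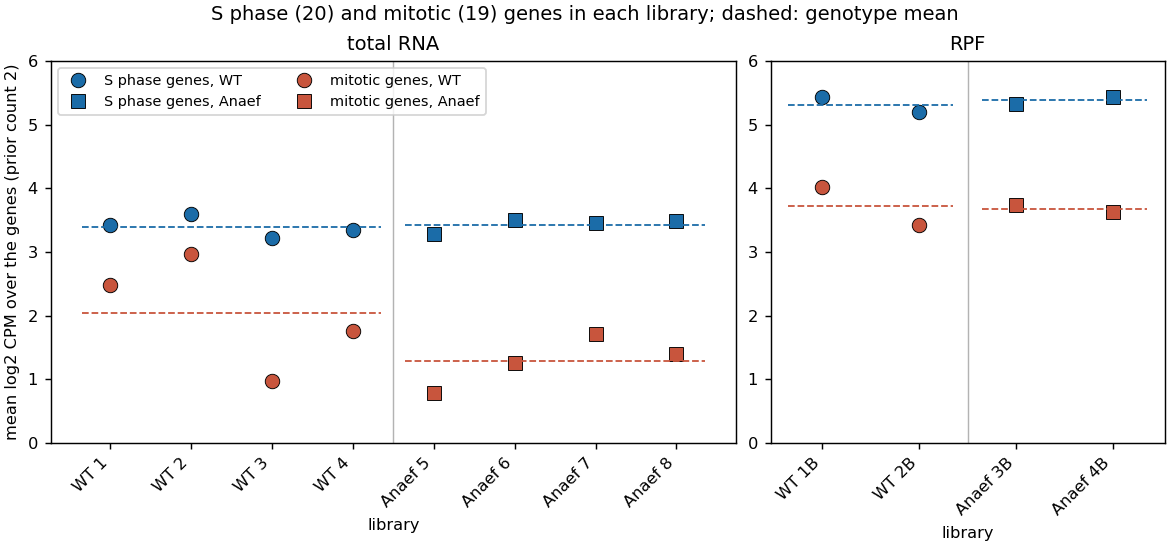
Mean log2 CPM (prior count 2) over the 20 S phase genes (blue) and the 19 mitotic genes (red) in each library, circles for WT and squares for Anaef, with dashed lines at the genotype means. In total RNA the blue points lie between 3.22 and 3.59 while the red ones run from 0.78 to 2.97, with WT 1 and WT 2 highest.

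Immunoglobulin transcripts followed the mitotic sum in some libraries and not in others. They took 0.876%, 1.87%, 0.354% and 0.378% of the counts in WT 1 to 4 and 0.283%, 0.194%, 0.172% and 0.192% in Anaef 5 to 8, so WT 1 and 2 led in both measures. Anaef 5, with the largest share in Anaef, had the lowest mitotic sum of all libraries, 98.4 CPM. Plasma cell markers summed to 2492, 5453, 2326 and 1248 CPM in WT and 790, 870, 451 and 651 CPM in Anaef. That list includes the immunoglobulin genes Igha and Igkc, so its sum and the immunoglobulin share are not separate measures. B cell markers summed to 148, 118, 141 and 76.0 CPM in WT and 40.7, 28.7, 97.8 and 37.1 CPM in Anaef. The library with the lowest mitotic level in WT, WT 3, was the shallowest and had 2 mitotic genes at 0 counts, where a count of 0 allows up to 0.237 CPM. Myeloid and dendritic markers, like those of plasma cells, summed to more in every WT library than in any Anaef library. The part of other cells and of depth in the mitotic level was not tested.

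In RPF the S phase genes summed to 2296 and 2039 CPM in WT 1B and 2B and to 2094 and 2307 CPM in Anaef 3B and 4B. The mitotic genes summed to 677 and 374 CPM in WT and to 507 and 527 CPM in Anaef. Both Anaef pools thus lay between the WT pools for the mitotic genes, and WT 2B was the lowest pool for 15 of the 19 and WT 1B the highest for 11. Mean S phase minus mean mitotic log2 level was 1.41 in WT 1B, 1.77 in WT 2B, 1.59 in Anaef 3B and 1.81 in Anaef 4B. The genotype difference of the mean log2 level was -0.04 for mitotic genes (within-group SD 0.30) and 0.07 for S phase genes (SD 0.13). Immunoglobulin genes took 8.09% and 3.17% of RPF counts in WT and 2.54% and 0.790% in Anaef. The larger WT share was again in the pool with the larger mitotic sum, but the larger Anaef share was in the pool with the smaller one.

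**Figure D2:**
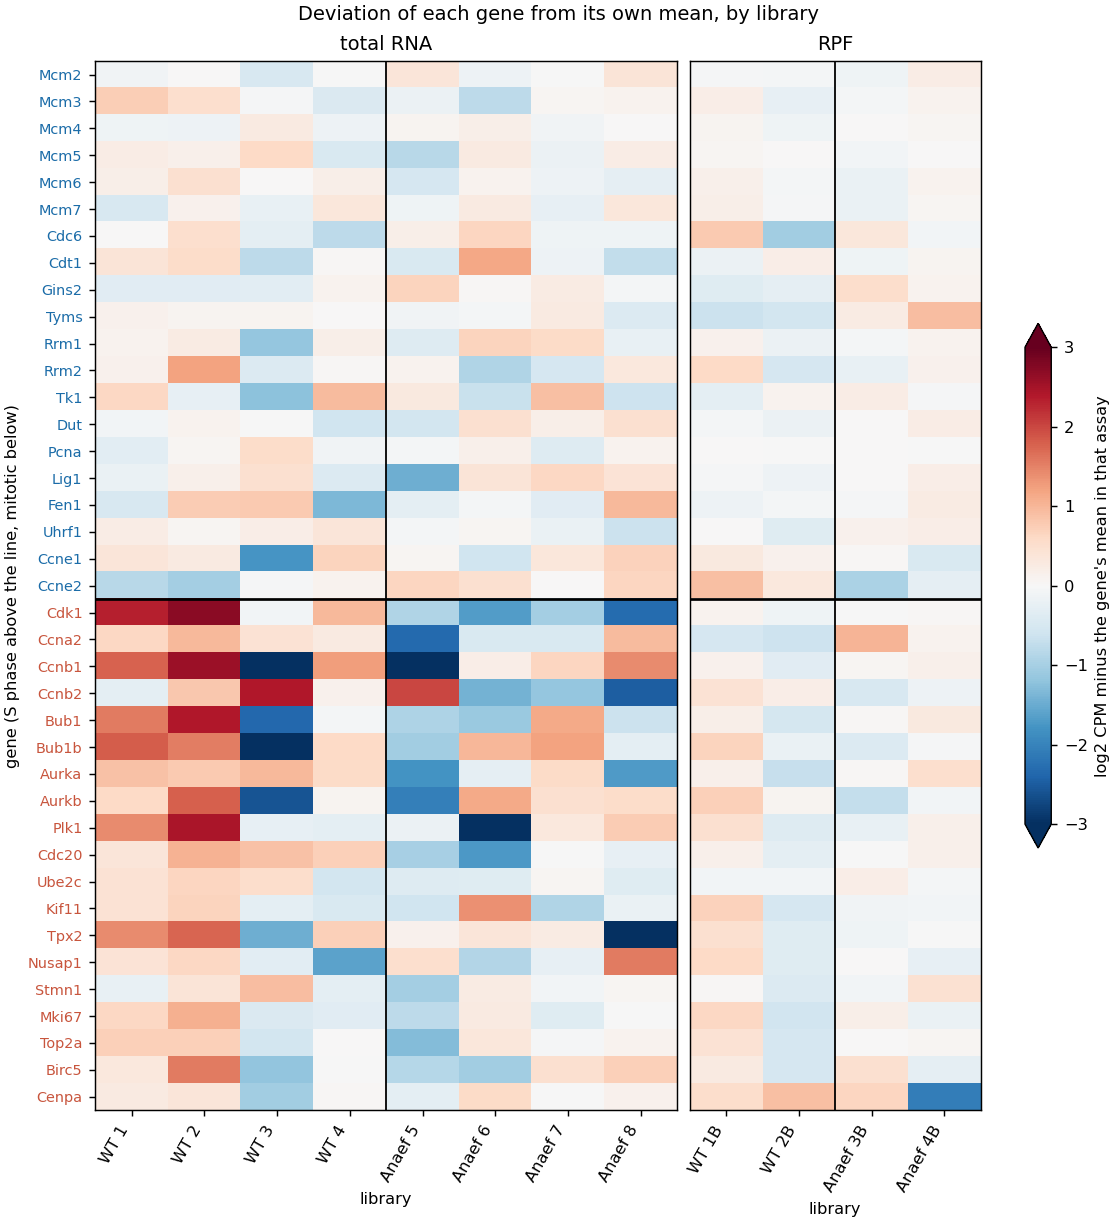
Each gene's log2 CPM minus its own mean in that assay, by library, red above and blue below the mean, with S phase genes above the horizontal line and mitotic genes under it and WT left of the vertical line. Mitotic rows are mostly red in WT 1 and WT 2, the highest libraries for 2 and 11 of the 19 genes, and strongly blue cells lie in WT 3 and Anaef 5, while S phase rows are pale in RPF.

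Single genes showed the same contrast in spread. The SD of log2 CPM between libraries of a genotype had a median of 1.01 over the mitotic genes in total RNA. It was 0.657 over 2877 protein-coding genes with mean counts between the quartiles of the mitotic genes (69 to 286). For S phase genes the median was 0.457, against 0.458 over 3578 such genes. In RPF it was 0.458 for mitotic genes against 0.266, and 0.190 for S phase genes against 0.190. Those comparisons are a description, without a test. The medians of the 2 groups also take in genes with counts outside the quartiles. In total RNA the mitotic median was the value of Cdk1, a gene under the filter on low counts. In RPF it was that of Ccna2, with 1 to 6 counts a pool. The part of low counts in the mitotic spread was not tested. Ccnb1, cyclin B1, had the widest spread in total RNA (2.68), with 123, 262, 0 and 57 counts in WT 1 to 4 and 0, 31, 64 and 90 in Anaef 5 to 8. Of the 28-base words of its coding sequence, 92.4% are also in other annotated transcripts. How the counting treated shared reads could thus move its counts. Bub1b, the checkpoint kinase that restrains the anaphase-promoting complex, had 231, 232, 0 and 65 counts in WT and 15, 100, 175 and 48 in Anaef. Ccnb2, cyclin B2, ran the other way, with 8.53 CPM in WT 3 and 6.44 CPM in Anaef 5 but 0.228 to 2.80 CPM in the other 6 libraries, so WT 3 and Anaef 5 were not low for every mitotic gene.

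**Figure D3:**
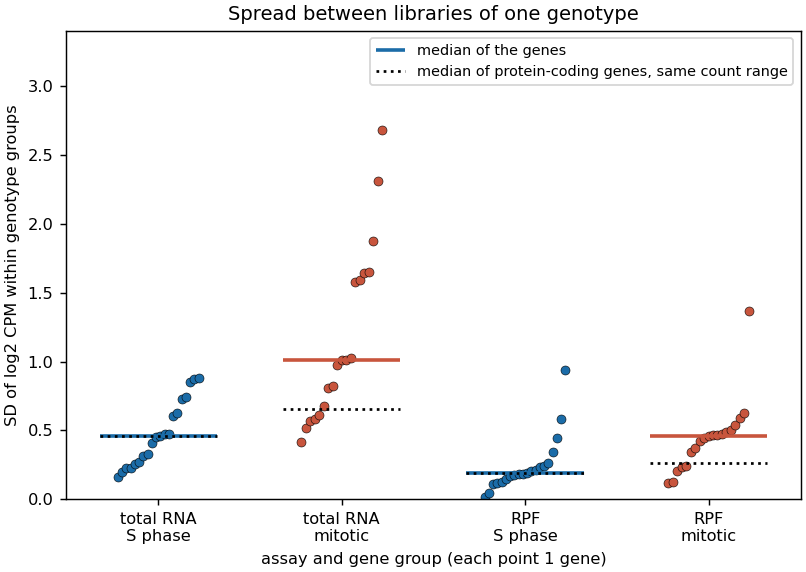
SD of log2 CPM between libraries of 1 genotype for each gene (points), by assay and gene group, with the median over all genes of the group (solid line). The dotted line is the median over protein-coding genes with mean counts between the quartiles of the group. The mitotic medians, 1.01 in total RNA and 0.458 in RPF, lie above their dotted lines, and the S phase medians lie on theirs.

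The first comparison asks which of these transcripts differed between Anaef and WT in total RNA. No gene of the list passed an adjusted p of 0.05 in edgeR's quasi-likelihood test among the 38 tested, where 0.0224% of all 17876 genes did, and none passed with DESeq2 or limma-voom either. At an unadjusted p under 0.05 there were 2 of 38, Gins2 higher and Cdc20 lower, against 5.62% of all genes. Mitotic genes leaned lower in Anaef, with 15 of the 18 tested below 0 and a median log2 fold change of -0.56, and S phase genes were split, with 12 of 20 above 0 and a median of 0.04, beside a median of 0.01 over all genes. Among the 38 tested genes, the Anaef values of 3, Uhrf1, Aurka and Cdc20, all lay below the WT values, where 2.01% of all genes did so, and none lay wholly above, where 1.58% did. Per the labels the libraries are separate samples, but nothing says how animals map to them, so p-values measure the spread between these samples only.

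Among genes that load and fire replication origins, 6 of 9 had a fold change above 0, with a median of 0.08. Mcm2 (ENSMUSG00000002870, chromosome 6, 88883474 to 88898780), a subunit of the replicative helicase, was at 23.9, 26.3, 18.5 and 25.9 CPM in WT 1 to 4 and 33.2, 23.2, 25.7 and 33.9 CPM in Anaef 5 to 8. Anaef 5 and 8 lay above all WT libraries and the other pair within their range (log2 fold change 0.29, SE 0.20, adjusted p = 0.936). Gins2 (ENSMUSG00000031821, chromosome 8, 120578633 to 120589304), part of the GINS complex that activates the helicase, was at 29.3, 29.2, 29.7 and 39.5 CPM in WT and 58.2, 37.7, 43.5 and 35.7 CPM in Anaef. Only WT 4 reached into the Anaef range. Its log2 fold change was 0.45 (SE 0.20, adjusted p = 0.874). Reads on Gins2 cannot be assigned firmly, since Gse1 and the predicted gene Gm20388 are annotated on the opposite strand over 2758 and all 10672 bases of its span, and no source used here states the strand setting of the counting.

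The genes of nucleotide supply had 2 of 5 above 0 and a median of -0.13. Tyms (ENSMUSG00000025747, chromosome 5, 30058202 to 30073617) was at 62.5, 59.9, 59.8 and 56.9 CPM in WT and 53.1, 55.0, 68.0 and 43.0 CPM in Anaef. The WT libraries were close together and inside the wider Anaef range (log2 fold change -0.13, SE 0.16, adjusted p = 0.985). At the fork, 2 of 4 genes were above 0. Pcna (ENSMUSG00000027342, chromosome 2, 132249162 to 132253314) was at 63.9, 83.0, 117 and 74.2 CPM in WT and 76.9, 89.2, 61.5 and 86.3 CPM in Anaef. WT 3 was the highest library and all Anaef values but that of Anaef 7 lay within the WT range (log2 fold change -0.11, SE 0.21, adjusted p = 0.987), and without WT 3 the fold change was 0.0905. Uhrf1, which recruits the maintenance methyltransferase to new DNA, was at 5.40, 4.87, 5.37 and 6.0 CPM in WT and 4.43, 4.81, 4.01 and 2.96 CPM in Anaef, with a gap between the groups that is small beside their spread (log2 fold change -0.42, SE 0.29, adjusted p = 0.940). Of the 28-base words of the Uhrf1 coding sequence, 48.1% are also in other annotated transcripts, so shared reads could move its counts. The E cyclins, which drive entry into S phase, were at 0.06 (Ccne1) and 0.88 (Ccne2) on the log2 scale, neither past the threshold. Ccne2 was at 0.692, 0.609, 1.26 and 1.4 CPM in WT and 2.06, 1.82, 1.30 and 2.05 CPM in Anaef, where only Anaef 7 reached into the WT range.

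Each of the 10 tested genes among mitotic cyclins, kinases and anaphase promoters had a fold change below 0. The 3 cyclins had a median of -0.87, the 5 kinases and checkpoint genes a median of -1.31, and the 2 genes of anaphase promotion -0.58 and -1.51. Cdk1 (ENSMUSG00000019942, chromosome 10, 69335146 to 69352938) was under the filter on low counts and had no test in total RNA. It had 58, 92, 3 and 14 counts in WT 1 to 4 and 2, 1, 4 and 0 in Anaef 5 to 8, which is 1.54, 2.00, 0.237 and 0.560 CPM against 0.106, 0.034, 0.092 and 0 CPM. WT 1 and 2 held most of its reads, and the groups did not overlap, although WT 3 exceeded Anaef 5 by a single read at a lower depth. The 0 in Anaef 8 allows up to 0.0854 CPM, the value of 3 counts.

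Cdc20 (ENSMUSG00000006398, chromosome 4, 118432901 to 118437352) was at 0.639, 1.07, 0.948 and 0.840 CPM in WT and 0.211, 0.103, 0.481 and 0.399 CPM in Anaef. All Anaef libraries were lower than all WT libraries, on 12 to 49 counts a library in WT and 3 to 21 in Anaef. The log2 fold change was -1.51 (SE 0.60, adjusted p = 0.840). Of the 28-base words of the Cdc20 coding sequence, 37.6% are also in other annotated transcripts, so how the counting treated shared reads could move its counts. Ube2c (ENSMUSG00000001403, chromosome 2, 164769898 to 164778822), the ubiquitin-conjugating enzyme of the same complex, was at 9.0, 10.3, 9.56 and 4.48 CPM in WT and 5.01, 5.16, 6.91 and 5.16 CPM in Anaef. WT 4 alone lay below the Anaef libraries (log2 fold change -0.58, SE 0.32, adjusted p = 0.912). Aurka, the kinase that matures spindle poles, was at 2.37, 2.24, 2.53 and 1.92 CPM in WT and 0.317, 1.03, 1.90 and 0.342 CPM in Anaef, with Anaef 7 just under WT 4 (log2 fold change -1.31, SE 0.61, adjusted p = 0.887).

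Spindle and chromosome genes were less one-sided, with 2 of 4 and 3 of 4 below 0. Stmn1 (ENSMUSG00000028832, chromosome 4, 134468320 to 134473843) was at 12.1, 18.5, 27.1 and 11.6 CPM in WT and 6.91, 16.7, 13.4 and 14.9 CPM in Anaef. WT 3 was highest and Anaef 5 lowest, with the rest overlapping (log2 fold change -0.41, SE 0.35, adjusted p = 0.956), and without WT 3 the fold change was -0.11. Mki67 (ENSMUSG00000031004, chromosome 7, 135689784 to 135716361), the Ki-67 protein that coats mitotic chromosomes, was at 87.0, 118, 41.6 and 44.3 CPM in WT and 32.8, 68.0, 43.7 and 55.6 CPM in Anaef. WT 1 and 2 stood above all Anaef libraries and WT 3 and 4 among them (log2 fold change -0.54, SE 0.35, adjusted p = 0.934), and without WT 2 the fold change was -0.21. Cenpa (ENSMUSG00000029177, chromosome 5, 30666777 to 30674830) was at 31.2, 33.2, 12.6 and 26.5 CPM in WT and 21.2, 38.4, 25.7 and 28.1 CPM in Anaef. Its groups overlapped apart from a low WT 3 (log2 fold change 0.13, SE 0.30, adjusted p = 0.989), and without WT 3 the fold change was -0.0949.

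**Figure D4:**
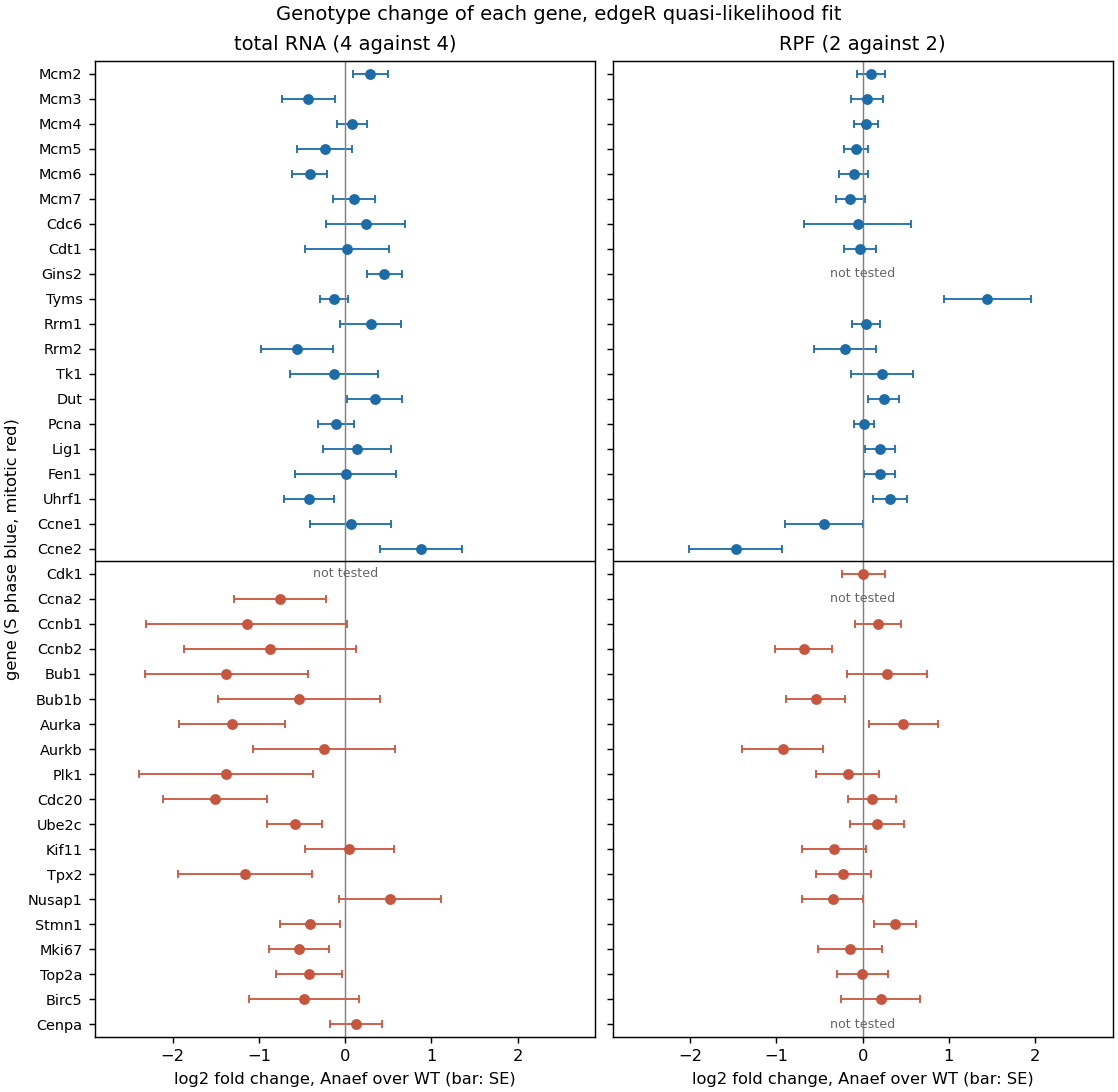
Log2 fold change of Anaef over WT with its SE for each gene, in total RNA (left) and RPF (right), S phase genes in blue above the line and mitotic genes in red. In total RNA 15 of 18 red points lie below 0 with wide bars, and in RPF the red points lie on both sides of 0.

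The same comparison in footprints covered 36 of the 39 genes, since Gins2, Ccna2 and Cenpa had too few RPF counts. None passed in edgeR, where 0% of all 9710 genes did, nor in DESeq2 or limma-voom, and 2 of 36 had an unadjusted p under 0.05, against 11.9% of all genes. The mitotic genes, 8 above and 9 below 0, had a median log2 fold change of -0.00408, and the S phase genes, 11 above and 8 below, one of 0.04, beside 0.01 over all genes. Leaving out WT 1B moved the mitotic median to 0.36 and leaving out WT 2B moved it to -0.40. With 2 pools a genotype, each mitotic value rests on how WT 1B and 2B average. Pools this few can also separate by chance. Among the 36 tested genes, both Anaef pools lay above both WT pools for 6 and below them for 5. The share over all genes was not computed. Cdk1, with few RNA reads in Anaef, had 15 and 12.6 CPM of footprints in WT and 13.7 and 14.3 CPM in Anaef, with a fitted log2 change of 0.01 (SE 0.25, adjusted p = 0.991).

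Footprints of Tyms were 1.33 and 1.45 CPM in WT 1B and 2B and 2.86 and 4.87 CPM in Anaef 3B and 4B. Both Anaef pools were higher, but on 9 and 6 counts against 10 and 14 (log2 fold change 1.45, SE 0.51, adjusted p = 0.382 by edgeR). Ccne2 (ENSMUSG00000028212, chromosome 4, 11191351 to 11204779) was at 5.30 and 3.39 CPM in WT and 1.14 and 2.09 CPM in Anaef, on 36, 14, 4 and 6 counts. Here both Anaef pools were lower (log2 fold change -1.47, SE 0.54, adjusted p = 0.383). Ccne2 overlaps Ints8 on the opposite strand over 5622 bases, so some of its reads may belong to that gene.

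Pcna, Mcm2, Stmn1, Mki67 and Ube2c, all among the genes with most RNA per length in their group, were not called in footprints. Pcna footprints were 472 and 462 CPM in WT and 476 and 468 CPM in Anaef (log2 fold change 0.02, SE 0.12, adjusted p = 0.972). Mcm2 was at 194 and 193 CPM in WT and 183 and 232 CPM in Anaef (log2 fold change 0.10, SE 0.16, adjusted p = 0.848). For both genes the groups overlapped. Stmn1 was at 83.1 and 61.0 CPM in WT and 76.6 and 111 CPM in Anaef, again overlapping (log2 fold change 0.38, SE 0.24, adjusted p = 0.571). Mki67 gave 163 and 71.0 CPM in WT around 120 and 92.2 CPM in Anaef (log2 fold change -0.15, SE 0.37, adjusted p = 0.913). Ube2c was at 7.51 CPM in both WT pools and at 9.15 and 7.66 CPM in Anaef, which lay above them (log2 fold change 0.17, SE 0.31, adjusted p = 0.874).

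Whether footprints changed relative to RNA was tested with an interaction term (genotype by assay) in 1 fit of the 12 libraries. All 39 genes were tested and none passed in edgeR, where 0% of all 19031 genes did, nor in DESeq2 or limma-voom, and 4 of 39 had an unadjusted p under 0.05, against 3.34% of all genes. The interaction was above 0 for 14 of 19 mitotic genes, with a median of 0.74, and for 11 of 20 S phase genes, with a median of 0.09, beside 0.01 over all genes. It shares its libraries with the 2 genotype comparisons above, and the mitotic values follow from total RNA values below 0 and RPF values near 0. Cdk1 had the most positive value, 4.22 (SE 1.14, adjusted p = 1.00 by edgeR), resting on 7 total RNA counts over the 4 Anaef libraries. Tyms had 1.58 (SE 0.41), resting on 15 RPF counts in WT and 24 in Anaef. Cdc20 had 1.60 (SE 0.71) and Ccne2 had -2.33 (SE 0.79), each with an adjusted p of 1.00.

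Footprints were then set against RNA within each genotype, as a log2 ratio of the libraries after TMM scaling over both assays. The scaled ratio had a median of -1.62 over all genes tested in WT and -0.36 over protein-coding ones, so the size of a ratio below is read beside these. The calls and adjusted p test each scaled ratio against 0 and not against these medians. In WT, S phase genes had a median of 2.13 and mitotic genes one of 1.30, which was 0.80 without WT 1B and 1.54 without WT 2B. The ratio passed upward for 21 of 39 genes, where 19.6% of all genes and 26.4% of protein-coding genes did. It passed downward for 5, where 54.4% of all genes and 39.4% of protein-coding genes did. Upward calls took 15 of 20 S phase genes and 6 of 19 mitotic genes. In Anaef the medians were 2.02 and 1.81 (0.86 for mitotic genes with a mean of at least 50 counts), with -1.79 over all genes and -0.48 over protein-coding ones. There 21 genes passed upward (16.4% of all genes and 21.6% of protein-coding ones did) and 5 downward (50.8% and 36.3% did). Of these, 13 upward calls were S phase and 8 mitotic. Total RNA and RPF libraries were made with different kits, so a ratio is not an absolute rate of translation.

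Most genes of the helicase stood high in both genotypes. Of the 9 licensing and helicase genes, 7 passed upward in WT and 7 in Anaef, and the 6 MCM subunits, Mcm2 to Mcm7, had WT ratios of 2.24 to 2.96. Fen1 (ENSMUSG00000024742, chromosome 19, 10199132 to 10204169), the nuclease that trims flaps of the lagging strand, had the highest WT ratio, 3.80 (SE 0.56, adjusted p = 0.000495), and 3.95 in Anaef. It had 40.6 and 43.3 CPM of footprints in WT and 43.5 and 52.9 CPM in Anaef. Its RNA was at 1.14, 2.80, 2.84 and 0.600 CPM in WT 1 to 4 and 1.32, 1.55, 1.26 and 3.25 CPM in Anaef 5 to 8, every library far below every pool. The antisense gene Gm10143 holds the whole Fen1 coding sequence (100% of its 28-base words) and spans 3253 bases of the gene. How the counting treated shared reads could thus move both its RNA and its footprint counts, which was not tested. Cdt1 (ENSMUSG00000006585, chromosome 8, 122568015 to 122573554), which loads the helicase onto origins, followed with 3.51 (SE 0.34, adjusted p = 5.82e-05) in WT and 3.43 in Anaef. Footprints of Cdt1 were 69.9, 89.8, 72.4 and 83.9 CPM in WT 1B and 2B and Anaef 3B and 4B, all well above its RNA. The RNA of Cdt1 was at 5.03, 5.68, 2.21 and 3.96 CPM in WT and 2.80, 8.73, 3.43 and 2.28 CPM in Anaef. It lies wholly within the predicted gene Gm20388 on the same strand.

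Cdc20 had the highest ratio of the mitotic genes in WT, 3.19 (SE 0.37, adjusted p = 0.000137), with 15.2 and 10.9 CPM of footprints in WT and 13.4 and 15 CPM in Anaef. Its ratio in Anaef was 4.77 (SE 0.64). As 37.6% of its 28-base words are shared with other transcripts, the counting of shared reads could move both ratios. Cdk1 stood at 2.89 (SE 0.67) in WT against 7.09 (SE 0.85) in Anaef. For Mki67 the ratio was -0.02 (SE 0.50) in WT and 0.34 (SE 0.30) in Anaef, above the protein-coding medians of -0.36 and -0.48 but called in neither. Stmn1 and Pcna passed upward in both genotypes, at 1.34 and 1.75 in WT, as did Mcm2 at 2.32, and Ube2c did not pass in either (-0.87 and -0.15).

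At the other end lay 4 genes with ample RNA and almost no footprints. Ccna2 (ENSMUSG00000027715, chromosome 3, 36564865 to 36572150), the cyclin that serves both S phase and mitotic entry, had 510, 787, 150 and 263 total RNA counts in WT 1 to 4 but 2 and 1 RPF counts. In Anaef 5 to 8 it had 32, 184, 278 and 594 total RNA counts, far fewer in Anaef 5 than elsewhere, and 6 and 2 RPF counts. Tyms had 757 to 2971 total RNA counts and 6 to 14 RPF counts, and Gins2 had 376 to 1900 and, in the pools WT 1B and 2B and Anaef 3B and 4B, 6, 4, 7 and 4. Cenpa had 16, 13, 9 and 0 RPF counts in the 4 pools, the 0 allowing up to 1.04 CPM. These 4 had the lowest WT ratios of the list. WT ratios were -6.27 for Ccna2 (SE 0.47, adjusted p = 1.74e-05), -6.14 for Tyms (SE 0.25, adjusted p = 2.77e-06), -5.82 for Gins2 (SE 0.33, adjusted p = 6.34e-06) and -3.97 for Cenpa (SE 0.49, adjusted p = 0.000210). The fifth gene called lower in WT was Ccne1, cyclin E1, at -1.97.

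In Anaef the corresponding ratios were -3.41 for Ccna2, -4.59 for Tyms, -5.41 for Gins2, -5.11 for Cenpa and -2.53 for Ccne1. The call for Ccna2 was lost with limma-voom (adjusted p = 0.222) and when either Anaef 3B or Anaef 4B was left out (adjusted p = 0.0744 and 0.134 by edgeR). With 1 library left out, the ratio of Cenpa ran from -12.5 without Anaef 3B to -4.20 without Anaef 4B, and since Anaef 4B has 0 counts, its fitted value is no bound. Among protein-coding genes within 2-fold of its RNA level, 5.47% had a WT ratio as low as that of Ccna2, 2.85% as low as that of Tyms, 3.62% as low as that of Gins2 and 7.99% as low as that of Cenpa. Over all 11909 protein-coding genes tested those shares were 8.74%, 8.93%, 9.37% and 13.6%. The coding sequence makes up 42.7%, 29.1%, 14.2% and 27.4% of the transcripts of Ccna2, Tyms, Gins2 and Cenpa, against a median of 63.2% over S phase genes, 55.5% over mitotic genes and 54.5% over protein-coding genes tested. For Ccna2, Gins2 and Cenpa, 0% of the 28-base words of the coding sequence are shared with another transcript, and for Tyms 37.3% are, with its pseudogene. Exosc9 overlaps Ccna2 on the opposite strand over 863 bases, so some RNA reads counted for Ccna2 may belong to that gene. RPF columns are named as masked without a source that states the mask, and the part of masking or of the coding share in these low counts was not tested.

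**Figure D5:**
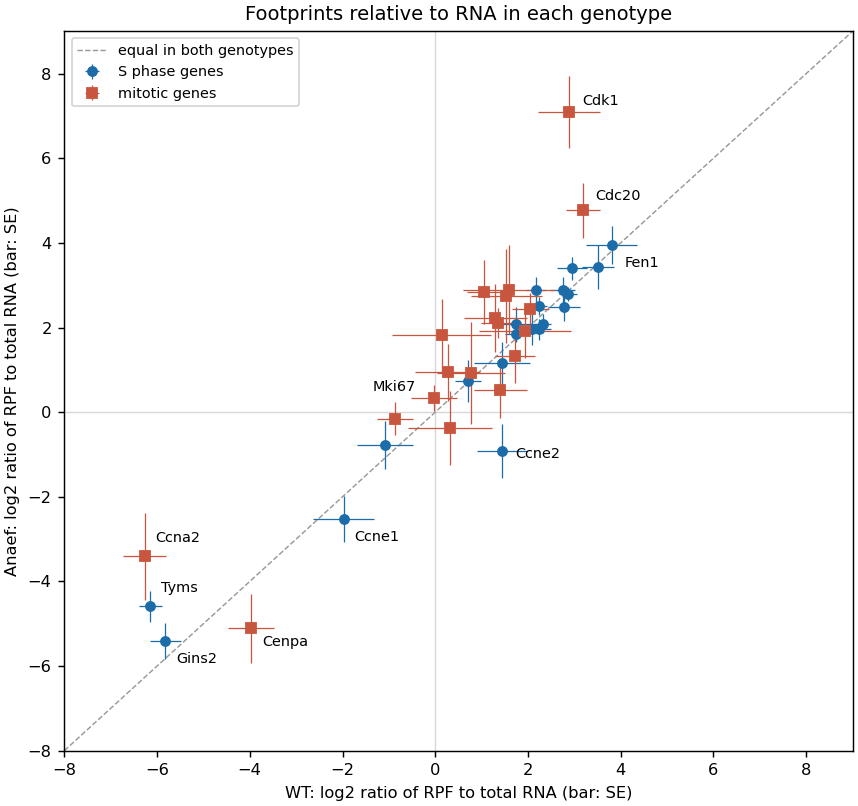
Log2 ratio of RPF to total RNA in WT (horizontal) and Anaef (vertical) with SE bars, circles for S phase and squares for mitotic genes, and the dashed line where both are equal. Most genes lie near the line between 0 and 4, Ccna2, Tyms, Gins2 and Cenpa lie far below 0, and Cdk1 lies above the line at 2.89 and 7.09.

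Wider lists of the same pathways were read beside the 39 genes. Of 53 other replication genes tested in total RNA, none passed and 30 were above 0, with a median log2 fold change of 0.07. The smallest p belonged to Pole, the leading-strand polymerase, at -1.29 (SE 0.39, adjusted p = 0.700 by edgeR), followed by Rnaseh2a at 1.24, Rpa3 at 1.70 and Dscc1 at -1.86. Of 55 other mitotic genes tested, none passed, 35 were below 0 and the median was -0.21. Espl1, the separase that cuts cohesin, was at -2.09 (SE 0.82, adjusted p = 0.840), Racgap1 at -0.89, Kif20a at -0.81 and Smc4, a condensin subunit, at 0.36. Among 17 genes of the Rb, E2F and DREAM group, which repress or drive both sets, 10 were above 0 with a median of 0.12, and Rbl2, the p130 pocket protein of resting cells, was at 0.35 (SE 0.13, adjusted p = 0.840). G1 cyclins, CDKs and CDK inhibitors had 7 of 11 below 0 and a median of -0.04.

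In RPF none of these lists had a gene that passed, and their medians were 0.04 for other replication genes, -0.05 for other mitotic genes, -0.04 for G1 cyclins, CDKs and inhibitors and 0.02 for the Rb, E2F and DREAM group. The smallest p were those of Cks2, a Cdk-binding subunit, at 1.02 (SE 0.27, adjusted p = 0.344 by edgeR), and of Cdkn2d, the p19 inhibitor of Cdk4 and Cdk6, at 0.60 (SE 0.18, adjusted p = 0.344). Relative to total RNA in WT, the medians were 0.90 for other replication genes and 0.63 for other mitotic genes. Of these, 25 of 53 and 24 of 58 were called higher, where 19.6% of all genes and 26.4% of protein-coding genes were. The Rb, E2F and DREAM group had a median of -1.34, with 10 of 17 called lower and 2 higher. Called lower were 54.4% of all genes and 39.4% of protein-coding genes. The G1 group had a median of -0.98.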

How the data were processed

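The deposited table gave unnormalized read counts by gene: 8 total RNA libraries and 4 RPF libraries, the latter after masking by the authors and each from a pool of 2 samples, per the labels and column names. Alignment used TopHat 1.4.1 and GRCm38, per the submitters' processing notes. Not given in the sources are the counting tool, the annotation it used, its strand setting and the mask. Symbols, lengths and positions came from GENCODE vM21 (GRCm38).

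The test was edgeR's quasi-likelihood F test (edgeR 4.0.16, R 4.3.3) on genes kept by filterByExpr and scaled by TMM. P-values were adjusted by Benjamini-Hochberg over all genes tested, with a threshold of 0.05, and standard errors came from the F statistic. The 5 comparisons were the genotypes in total RNA, in RPF and in their interaction, and RPF against total RNA in each genotype. Log2 CPM used a prior count of 2, and a floor of 3 counts covers counting error only. All of these fits but that of RPF against total RNA in Anaef were tested on simulated counts. The simulated spread was the same for every gene and only well-counted genes were changed. Recovery of genes with low or uneven counts, such as many mitotic ones, was thus not tested. The simulation for the WT ratio held no difference between assays apart from the genes changed on purpose. Levels per length used the transcript in total RNA and the coding sequence in RPF, from the transcript with the longest coding sequence.

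The 39 genes, the other lists and the choice of named genes were set with earlier results of these data known. Values by library are given, as counts or CPM, for the 4 genes of each group with the highest total RNA level per length, up to 3 per direction with the smallest p under 0.05 in a genotype comparison, and the 3 highest and 3 lowest called WT ratios; further named genes were chosen after their values were seen. Alternatives were DESeq2 1.42.0, limma-voom (limma 3.58.1), RLE size factors, no filter, a mean of at least 50 counts, all 12 libraries in 1 fit, other sets of genes, and leaving out each library.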

Additional observations from a re-analysis of the deposited data

Results flagged for a closer look

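In 3 of the 38 groups of 4 libraries tested, 1 total RNA library stood far from the other 3, where chance alone flags about 1 in 20 groups. Gins2 was at 39.5 CPM in WT 4 and at 29.2 to 29.7 CPM in the other WT libraries. Ube2c was at 6.91 CPM in Anaef 7 and at 5.01 to 5.16 CPM in the other Anaef libraries. Fen1 was at 3.25 CPM in Anaef 8 and at 1.26 to 1.55 CPM in the other Anaef libraries.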

How the results depend on the processing

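No gene of the list passed in any genotype comparison under any alternative run. Counts over all genes did move, and the cause was not tested. In total RNA the 4 genes called became 120 with DESeq2, 2 with limma-voom, 0 without mitochondrial, Ig and TCR genes, and 0 to 3 when 1 library was left out. In RPF the 0 became 197 with DESeq2, 514 with no filter, 6 without mitochondrial, Ig and TCR genes, and 0 to 211 when 1 pool was left out (211 without Anaef 3B, 14 without Anaef 4B). For the interaction the 0 became 10 with DESeq2, and 0 to 1 with 1 library left out. With protein-coding genes only, an alternative chosen after seeing the data that tests fewer genes, the ratio was called for 7740 genes in WT (13157 in all) and 6715 in Anaef (12106 in all), and with limma-voom for 7909 in Anaef.

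With 1 library left out, the mitotic median in RPF ran from -0.40 to 0.36 and the S phase median of the interaction from -0.0841 to 0.147. The S phase median of the ratio ran from 1.99 to 2.26 in WT and from 1.88 to 2.15 in Anaef. With genes under a mean of 50 counts left out, the Anaef medians were 2.22 for S phase and 0.86 for mitotic genes. Genes near 0 changed sign. In total RNA Pcna ran from -0.221 to 0.0905 and Cenpa from -0.0949 to 0.271. In RPF Pcna ran from -0.000231 to 0.0216 (-0.00223 with no filter), Mcm2 from -0.0855 to 0.261 and Mki67 from -0.62 to 0.57. In the interaction Pcna ran from -0.11 to 0.19 and Mki67 from -0.11 to 1.08. The WT ratio of Mki67 ran from -0.75 to 0.45 and was 0.0529 with DESeq2, 0.0534 with RLE size factors, 0.0542 with protein-coding genes only and 0.0182 at a mean of 50 counts. The Anaef ratio of Ccna2 lost its call with limma-voom (-3.02, adjusted p = 0.222) and without Anaef 3B or 4B (adjusted p = 0.0744 and 0.134), and the WT ratio of Stmn1 lost it without WT 1B (adjusted p = 0.105). The WT ratio of Ube2c gained a downward call without WT 4 (-1.09, adjusted p = 0.0134 by edgeR). The RPF values of Ccna2, Tyms, Gins2 and Cenpa rest on at most 16 counts a pool. No paired analysis was possible because the genotypes share no replicate numbers and the labels do not say which samples went into which pool.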
